A study of Mus musculus with 35 samples.

Results

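Polymorphic pseudogenes are genes whose reading frame is broken in the reference genome but intact in other individuals or strains of the same species. The combined annotation of the study gives this biotype to 88 of its 55356 genes, and these 88 genes were taken by that annotation field alone, with no use of measured values. They were followed across 29 RNA-seq libraries from adult mice of the strain C57BL/6J, made from total RNA after depletion of ribosomal RNA with a strand-specific kit. The groups were brain, cerebellum, heart and colon of females and of males, ovary, and testis, with 3 libraries each and 2 for male heart. All groups share the inbred C57BL/6J background, and no allele or treatment is named in the labels. Which libraries came from one animal is not given in the sources used here, so the *P*-values below measure the spread between these libraries only. The libraries held between 11742417 and 36194255 counts (median 24403774), and the 88 genes took 0.00242% to 0.0138% of it. As a check of the labelled tissues, 20 of 20 markers of cerebellum, heart, colon, ovary or testis were higher in every library of their tissue than in every other library. All 4 markers of neurons and brain were higher in every brain and cerebellum library than elsewhere, and 3 of them were higher in every brain than in every cerebellum library, the exception being *Snap25*. The labels name ovary and testis only as gonad. In ovary the lowest levels of its markers were 0.838 (*Zp3*), 2.04 (*Fshr*), 4.04 (*Amh*) and 35.1 (*Foxl2*) FPKM, a unit explained with the levels. Summed over *Myh11* and *Acta2*, smooth muscle markers stood at 920 to 1892 FPKM in ovary, 118 to 157 in testis and 1995 to 4490 in colon. Whether the ovary samples held other tissue was not tested.

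A laboratory strain is fixed for one allele at each locus, so a gene can work in one strain and be inactive in another. *Mx1* and *Mx2*, GTPases that restrict the replication of viruses, *Oas1b*, an oligoadenylate synthetase linked to resistance to flaviviruses, and *Pla2g2a*, a secreted phospholipase of the intestine, are known for inactive alleles in C57BL/6 mice. Such genes can still be transcribed, and a transcript whose stop codon lies well before its last exon junction can be degraded by nonsense-mediated decay. Odorant and vomeronasal receptors, which detect odours and pheromones in the nose, form very large gene families in the mouse, with many inactive copies.

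Stretches of the reading frames of 8 of the 11 genes that reached a mean of 1 FPKM in a tissue (the unit is explained with the levels) are printed here to show where the pseudogene models stop or depart from the coding models. The class was taken from the annotation of the study. GENCODE M21 gives the same biotype to 82 of the 88 genes, but calls *Rnls* and *Mx1* protein-coding and *Abhd1* and *Ptprv* processed transcripts. The letters are from the GENCODE M21 transcripts on GRCm38, 5′ to 3′ on the strand of the gene. In the first 6, the capitals mark the first in-frame stop codon. In *Mx2*, the frame of the polymorphic pseudogene model, 1966 bases long, is 1 base longer than that of the gene's coding model.
Rnls, codon 33 of 342, chr19:33391974-33391976, minus strand: tacctcggcctgTGAgacaagggtggg
Clec7a, codon 71 of 244, chr6:129468993-129468995, minus strand: ctagcattttggTGAcacaattcaggg
Art2a, codon 161 of 287, chr7:101554847-101554849, minus strand: aagggctctgtgTGAtttgggcatttt
Atp10d, codon 817 of 1469, chr5:72264471-72264473, plus strand: tcattaacatttTAActcctacacatt
Oas1b, codon 253 of 376, chr5:120821308-120821310, plus strand: gcccagggcttcTGAaccgtcttggaa
Mx2, codon 424 of 655, chr16:97555977-97555979, plus strand: tgctgttttataTAAtgaagtctgggc
In *Abhd1* the break is an indel. Its pseudogene model runs through 1 base that the coding model of the gene leaves out as a very short intron, and the capital marks this base.
Abhd1, chr5:30954155, plus strand: gcaggactgaccAttgtctgcatgt
The pseudogene model of *Mx1* has no in-frame stop but is shorter, with 9 exons and 397 codons against 15 exons and 627 codons in the longest coding model. The capitals mark the bases that follow the junction from chr16:97455090 to chr16:97451551 on the minus strand.
Mx1: ggataggaccatagAGATGGTCCAAACT

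Across the class, 35 of 88 genes had a frame of whole codons with an in-frame stop, 47 had a frame that was not a multiple of whole codons, 5 had whole codons and no stop, and the letters of 1, *AC118710.1*, were not at hand. Frames of broken length were more common among the 60 chemosensory receptors, with 37, than among the other 28 genes, with 10, a description of the annotation with no test. Outside the receptors, 24 genes had a first stop, and in 23 of them the last exon junction lay more than 50 bases past it. The counts are summed over all transcripts of a gene, so a spliced form with an intact frame and one with the stop cannot be told apart in them.

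**Figure D1:**
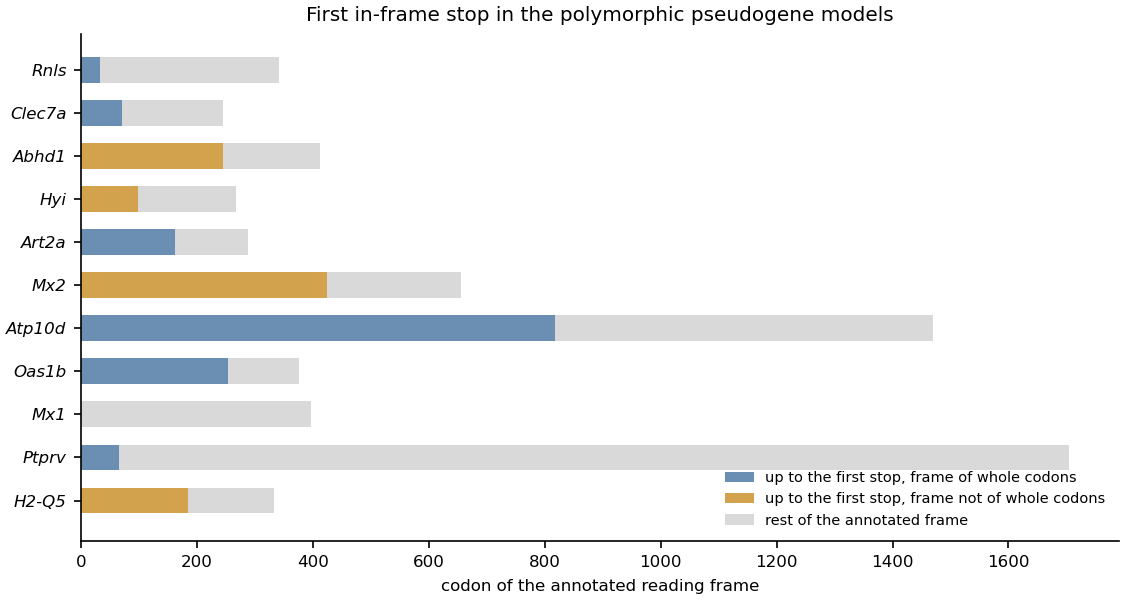
Position of the first in-frame stop, in codons of the annotated reading frame (x axis), for the 11 genes with a tissue mean of at least 1 FPKM (y axis). Coloured bars run up to the first stop and grey bars show the rest of the frame. *Rnls* and *Ptprv* stop near their start, at codons 33 and 66, and *Atp10d* at codon 817. *Mx1* has no stop within its annotated frame, which is shorter than that of its longest coding model.

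By role, the 88 genes are 56 odorant receptors, 4 vomeronasal receptors, 10 enzymes, transporters or signalling genes, 7 immune surface and antigen presentation genes, 5 interferon-inducible genes and 6 others. At least 1 count was found for 57 of them, and 31 had none in any library. FPKM, the counts of a gene per 1e6 counts of its library and per kilobase of its merged exons, was computed from the deposited counts, and a gene was taken as expressed at a tissue mean of at least 1 FPKM. This held for 11 of 88 genes (12.5%), which carried 88.7% of all counts of the class. *H2-Q5*, at 1.21 FPKM, and *H2-T10*, at 0.941 FPKM, lie just inside and just outside this limit. The highest tissue was colon for 5 of the 11 genes, ovary for 5 and testis for 1. For comparison, 31.9% of 72 unitary, 8.85% of 2950 unprocessed and 9.37% of 10289 processed pseudogenes reached 1 FPKM, as did 44.6% of 9040 protein-coding genes with ENSEMBL models, and testis was the highest tissue for 52.2%, 56.3%, 38.1% and 24.9% of those that did. Genes that the annotation carries as Iso-seq loci have no such biotype and are left out of these comparison classes. The paper reports higher levels for pseudogenes detected by Iso-seq than for other pseudogenes. None of these shares was compared by a test.

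**Figure D2:**
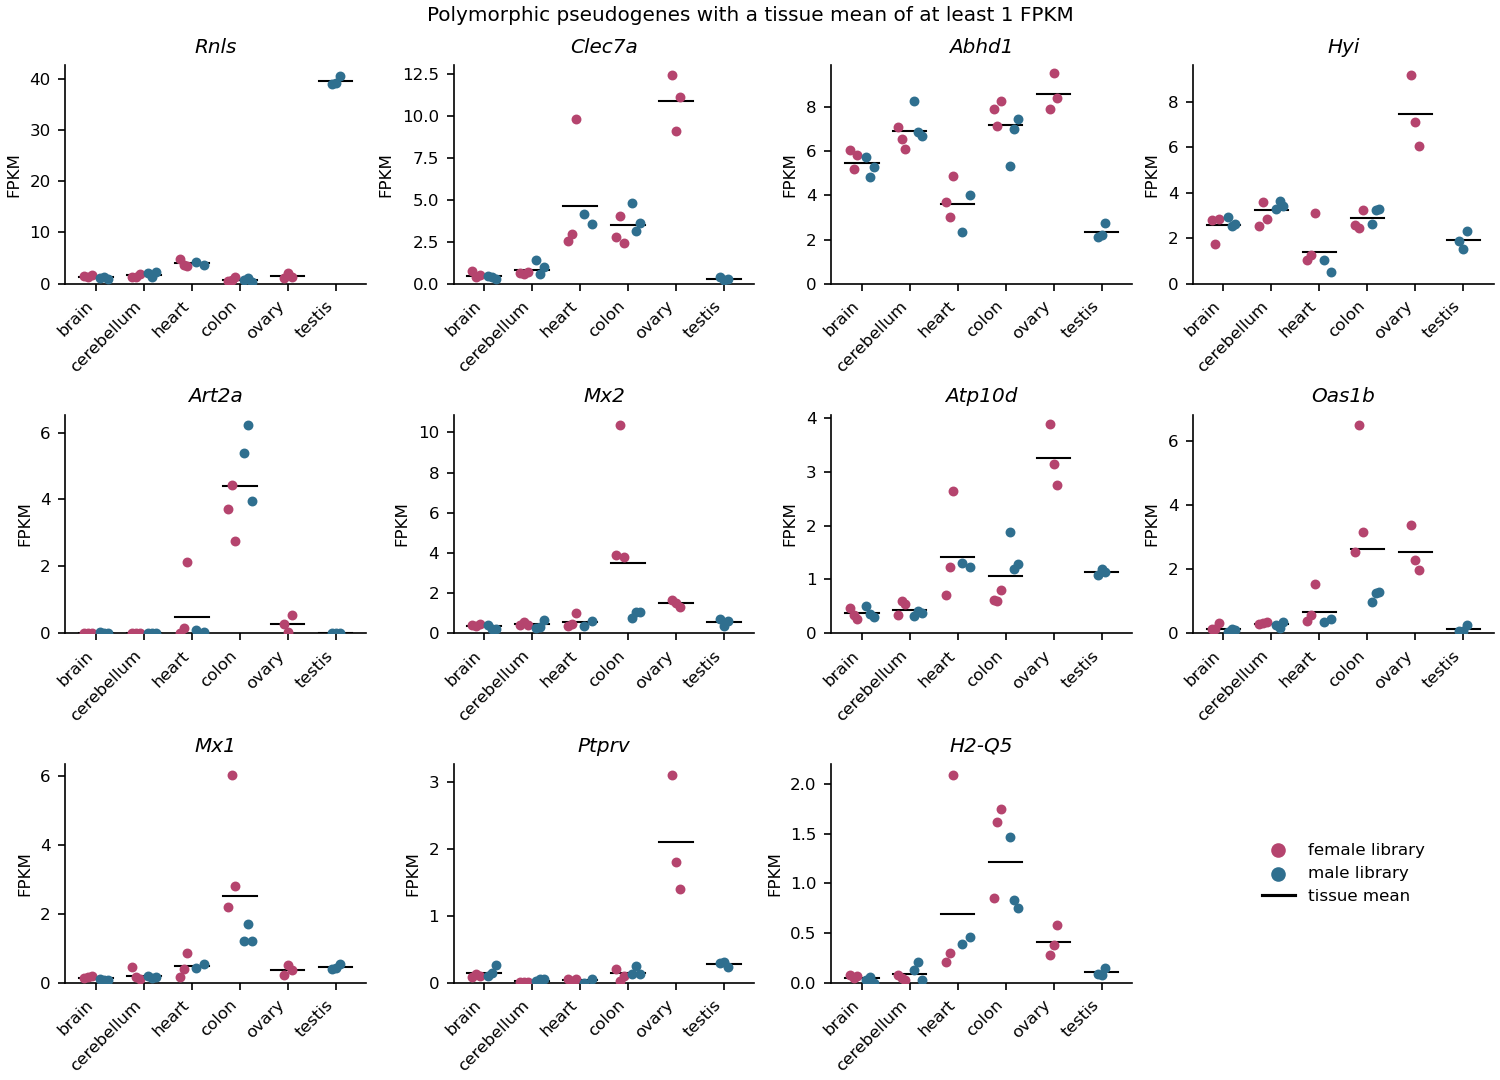
FPKM (y axes, each from 0) of the 11 expressed genes in every library by tissue (x axis). Points are libraries, coloured by sex, and black lines are tissue means. *Rnls* stands at 39 FPKM or more in the 3 testis libraries, and *Clec7a*, *Hyi*, *Atp10d* and *Ptprv* are highest in ovary. *Art2a*, *Mx1*, *Mx2* and *Oas1b* have their highest mean in colon, with 1 female colon library above the others for the last 3. The means of *Oas1b* in colon and ovary are close, at 2.62 and 2.54 FPKM.

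Differences between tissues were tested on the counts by edgeR's quasi-likelihood test, fitted once over all libraries, with Benjamini-Hochberg adjustment over the 29911 genes that passed the filter on low counts, and were called at an adjusted *P* under 0.05. Of the 88 genes, 23 passed the filter and 65 did not, so the counts of calls describe these 23. Levels in FPKM are relative to the total count, while the fitted log2 differences are relative to TMM-scaled library sizes. The TMM factors were 0.604 to 0.711 in 4 heart libraries, 1.12 in the third female heart library and 1.30 to 1.45 in ovary, so a level in ovary or in female heart 3 is larger in FPKM, and one in the 4 other heart libraries smaller, than on the scale of the fit. The highest tissue of the 11 expressed genes was the same on both scales for 10, the exception being *Abhd1*. Of the 23 genes, 22 differed among the 6 tissues (95.5% of all genes tested were called), and the remaining gene was *Serpinb10* (adjusted *P* = 0.0945).

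Over the 23 tested members, the direction of calls differed between tissues. In colon, 13 were called higher and 2 lower (56.5% and 8.70%, against 28.2% and 31.1% of all genes tested), with 5 of 5 immune surface and 4 of 5 interferon-inducible genes among the higher. In ovary, 9 were called higher and 1, *Rnls*, lower (39.1% and 4.35%, against 22.4% and 19.8%). Brain showed the reverse, with 2 higher and 9 lower (8.70% and 39.1%, against 33% and 23.1%), and cerebellum had 5 higher and 8 lower (21.7% and 34.8%, against 30.8% and 22%). Heart had 7 higher and 5 lower (30.4% and 21.7%, against 22.1% and 29.6%), and testis 5 in each direction (21.7% each, against 40.4% and 26.7%). Over the 15 tested members with counts in every group, the median log2 difference was -1.33 in brain, -0.94 in cerebellum, 0.66 in heart, -0.02 in colon, 0.74 in ovary and -0.34 in testis, against -0.10, -0.10, -0.55, -0.38, -0.15 and 0.10 over all genes tested. Over all 23 it was -1.33, -1.09, 0.30, 1.04, 0.64 and -0.61 in the same order, fitted values that for the 8 members with a group at 0 counts depend on the prior count. The shares and medians hold for the members that passed the filter and describe them only. Several passed it through 1 tissue alone, as *Pla2g2a* and *AC118710.1* did through colon, which fixed the direction of their differences there.

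**Figure D3:**
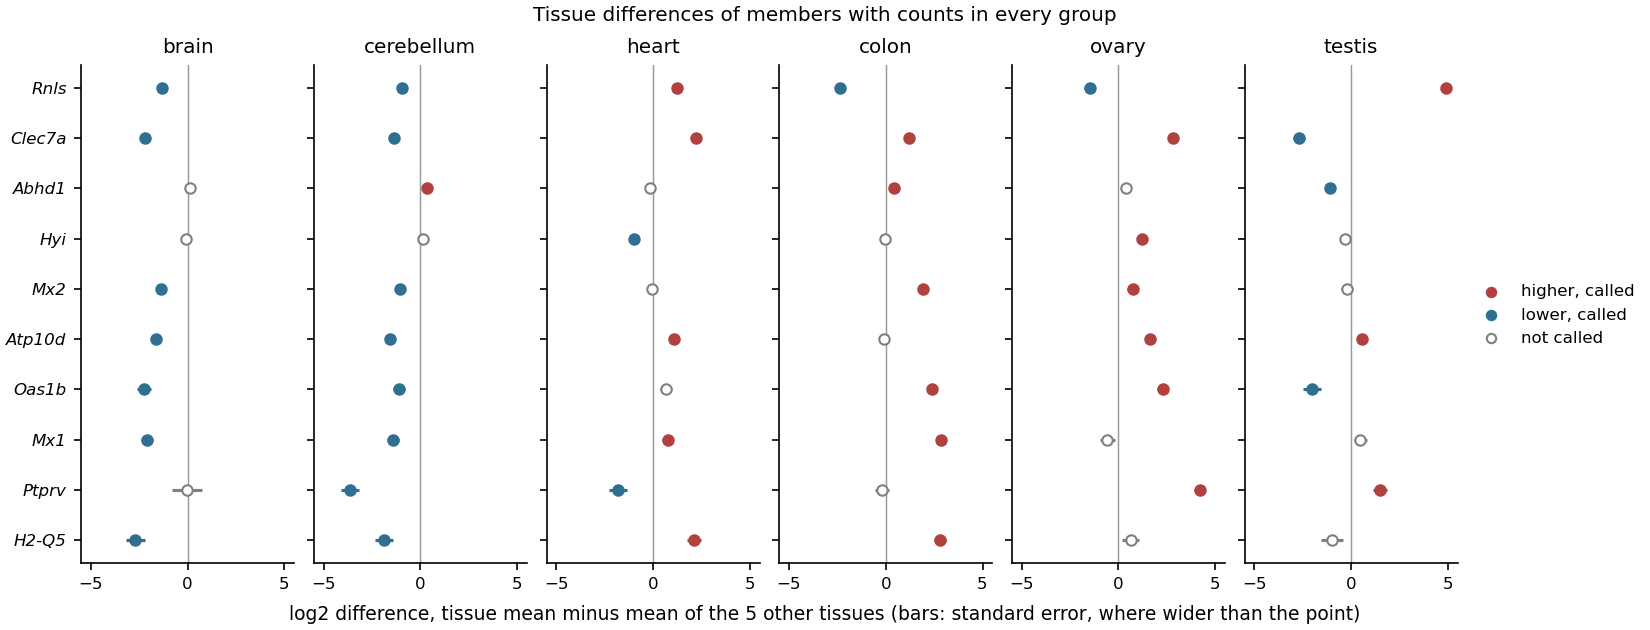
Fitted log2 difference of each tissue from the mean of the 5 other tissues (x axis) for the 10 expressed genes with counts in every group (y axis). Bars are standard errors, and filled points are called at an adjusted *P* under 0.05. The largest is *Rnls* in testis, at 4.90, followed by *Ptprv* in ovary, at 4.19, and in brain 7 of the 10 genes are called lower and 0 higher.

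*Rnls*, which encodes renalase, a flavin-dependent oxidase of NADH-like substrates, was the most abundant member and carried 19.1% of the counts of the class. Its level was 39.0, 39.1 and 40.6 FPKM in the testis libraries (39.6 ± 0.891, SD, n = 3) and 3.40 to 4.78 FPKM in heart (median 3.70, n = 5). In the other tissues no library exceeded 2.28 FPKM, and the lowest mean was in colon, at 0.741 ± 0.387 FPKM (n = 6). Every testis library was thus above every other library. Against the mean of the 5 other tissues, *Rnls* was higher in testis by 4.90 on the log2 scale (SE 0.19, adjusted *P* = 6.33e-18) and in heart by 1.22 (SE 0.20, adjusted *P* = 1.18e-05). It was lower in brain, cerebellum, colon and ovary, where it fell by 1.33, 0.94, 2.36 and 1.49 on that scale. The stop printed above lies early in its frame, at 9.65% of its length.

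Another 4 genes of the enzyme, transporter and signalling group reached 1 FPKM, and all 4 had their highest FPKM in ovary. *Hyi* encodes a putative hydroxypyruvate isomerase. It stood at 9.16, 7.09 and 6.05 FPKM in ovary, against at most 3.64 FPKM in any library of another tissue. It was higher in ovary by 1.24 (log2, SE 0.17, adjusted *P* = 1.31e-06) and lower in heart, where it fell by 0.97 (adjusted *P* = 4.02e-05), although female heart 3, at 3.09 FPKM, lay above the other heart libraries at 0.505 to 1.25 FPKM. *Atp10d*, a phospholipid flippase known for its truncated form in C57BL/6 mice, showed 3.89, 3.15 and 2.76 FPKM in ovary. Its heart libraries ranged from 0.713 to 2.64 FPKM (median 1.24), its testis libraries from 1.09 to 1.19 FPKM, and no brain or cerebellum library exceeded 0.596 FPKM. It was higher in ovary by 1.61 (SE 0.16, adjusted *P* = 8.01e-09), in heart by 1.10 (SE 0.14, adjusted *P* = 3.21e-07) and in testis by 0.56 (SE 0.18, adjusted *P* = 0.00692), a call that was lost with no filter on low counts (0.39, adjusted *P* = 0.0935), and it fell by 1.62 in brain and 1.55 in cerebellum.

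*Ptprv*, a receptor-type protein tyrosine phosphatase, was found at 3.10, 1.81 and 1.40 FPKM in ovary and at 0.233 to 0.310 FPKM in testis. No library of the 4 other tissues exceeded 0.264 FPKM, so the ovary libraries stood apart from all others. *Ptprv* was higher in ovary by 4.19 (log2, SE 0.30, adjusted *P* = 1.76e-11) and in testis by 1.49 (adjusted *P* = 0.000699), and it was called lower in cerebellum and heart. Without male heart 2, which leaves male heart at 0 counts, the cerebellum call was lost (adjusted *P* = 1). The exons of *Ptprv* share 345 bases with *Gm10535* on the opposite strand, and whether the counting used the strand is not given in the sources used here, so these counts are uncertain. The same holds for *Abhd1* (49 bases, with *Preb*), *H2-T10* (925 bases, with *BC023719*) and *Cxcl11* (1582 bases, with *Gm2673*). *Abhd1*, an abhydrolase domain enzyme, had the flattest profile of the 11 genes. It ranged from 7.91 to 9.54 FPKM in ovary, from 5.32 to 8.28 FPKM in colon (median 7.32) and from 6.09 to 8.30 FPKM in cerebellum (median 6.79). Brain was at 4.82 to 6.06 FPKM (median 5.51), heart at 2.34 to 4.90 FPKM (median 3.71) and testis at 2.11 to 2.74 FPKM. It was lower in testis, where it fell by 1.11 (SE 0.18, adjusted *P* = 4.75e-06), and higher in colon by 0.41 (SE 0.12, adjusted *P* = 0.00465) and in cerebellum by 0.36 (adjusted *P* = 0.0137), a call that was lost without male cerebellum 1 (adjusted *P* = 0.0582) or without male testis 2. Its excess in ovary, 0.38 on the log2 scale, missed the threshold (adjusted *P* = 0.0536). The tissue specificity index tau, which runs from 0 for an even profile to 1 for a single tissue, was 0.406 for *Abhd1*.

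The other 5 genes of the group stayed below 1 FPKM. *Casp16*, a caspase, was highest in ovary (0.798 ± 0.0713 FPKM, n = 3) and cerebellum (0.613 ± 0.181, n = 6) and was called higher in both, by 1.48 and 1.36 on the log2 scale, and lower in testis. *Cdk3*, a cyclin-dependent kinase, was called higher in cerebellum by 1.76 (adjusted *P* = 0.00318), at 0.143 to 0.321 FPKM there. *Pla2g2a* had 38 counts in all, every one in colon, with 1.74, 0.0631 and 0 FPKM in the female and 0, 0 and 1.45 FPKM in the male libraries. In the 5 other tissues its count of 0 allows at most 0.179 FPKM in their shallowest library (3 counts). *Slc22a13b*, an organic anion transporter, and *Mmp1a*, a collagenase, were not tested and reached at most 0.203 and 0.0324 FPKM in a tissue.

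The 5 tested genes of the immune surface and antigen presentation group were highest in colon or ovary. *Clec7a* encodes dectin-1, the receptor of myeloid cells for fungal beta-glucan. It stood at 12.4, 9.11 and 11.1 FPKM in ovary, at 2.53 to 9.85 FPKM in heart (median 3.53), at 2.44 to 4.82 FPKM in colon (median 3.39) and at most at 1.41 FPKM in any brain, cerebellum or testis library. The group of ovary, heart and colon did not overlap with the other 3 tissues. *Clec7a* was higher in ovary by 2.82 (log2, SE 0.19, adjusted *P* = 4.12e-12), in heart by 2.21 (SE 0.17, adjusted *P* = 2.91e-11) and in colon by 1.20 (SE 0.17, adjusted *P* = 8.85e-07), and it was lower in testis, brain and cerebellum, where it fell by 2.69, 2.18 and 1.37. Ovary and heart were not separated by the test (difference 0.51, adjusted *P* = 0.131).

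*Art2a*, an ADP-ribosyltransferase on the surface of T cells, was close to a single tissue, with a tau of 0.965. Its level in colon was 3.73, 4.42 and 2.75 FPKM in females and 5.39, 6.22 and 3.94 FPKM in males, while its 3 ovary libraries ranged from 0.0320 to 0.538 FPKM. It had 0 counts in cerebellum and testis, which allows at most 0.125 FPKM in their shallowest library, and 1 count in brain. In heart, 4 libraries were at or below 0.159 FPKM and female heart 3 was at 2.12 FPKM. The test called it higher in colon (adjusted *P* = 3.68e-09), heart (adjusted *P* = 0.0327) and ovary (adjusted *P* = 0.0268), and no fold is given because 4 of the 10 groups had 0 counts. Without female heart 3 the heart call was lost (adjusted *P* = 0.0725), and the mean in heart dropped from 0.480 to 0.0696 FPKM. The heart call was also lost without male heart 1 or male heart 2 (adjusted *P* = 0.201 and 0.0671), and the ovary call without female ovary 3 (adjusted *P* = 0.243) and with DESeq2 (adjusted *P* = 0.139).

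The class I histocompatibility genes, of the family that presents peptides to T cells, were found at lower levels. *H2-Q5* ranged from 0.754 to 1.75 FPKM in colon (median 1.16) and from 0.207 to 2.09 FPKM in heart, where all but female heart 3 were at or below 0.457 FPKM. It was higher in colon by 2.79 (SE 0.32, adjusted *P* = 3.29e-08) and in heart by 2.12 (SE 0.36, adjusted *P* = 1.86e-05). *H2-T10* was highest in ovary, at 0.519 to 1.57 FPKM, and was called higher in ovary (1.48) and colon (1.04) and lower in testis and brain. Its ovary call was lost without female ovary 2 (0.86, adjusted *P* = 0.119) and its testis call without male testis 1 (adjusted *P* = 0.0620). *H2-Bl* stood at 0.577 ± 0.413 FPKM in colon and 0.529 ± 0.156 FPKM in cerebellum (n = 6 each) and was higher in both. It was also called higher in brain, at 0.0654 to 0.324 FPKM, though not without male brain 1 (adjusted *P* = 0.0722), and it had 1 count in heart and 1 in ovary. *Cd1d2*, which presents lipids to T cells, had 5 counts, and *H2-Ea-ps*, an MHC class II chain missing from C57BL/6 mice, had none. *H2-Q5*, *H2-T10*, *H2-Bl*, *Art2a* and *Cd1d2* have close copies in the genome, and only uniquely mapped reads were counted, so their levels are uncertain.

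Levels of leukocyte markers are given beside this group. The summed level of 6 markers (*Ptprc*, *Cd3e*, *Cd79a*, *Lyz2*, *Itgam*, *Cd68*) was 183 to 709 FPKM in colon, 183 to 594 in heart, 186 to 221 in ovary, 65.6 to 123 in testis, 30.1 to 63.8 in cerebellum and 27.8 to 36.5 in brain. All 6 had counts in every library. The sums were higher in every colon, heart and ovary library than in any other, as were the levels of *Clec7a*, while *H2-Bl* did not follow them, with 0.529 FPKM in cerebellum and 1 count each in heart and ovary. In colon, heart and ovary most of the sum was *Lyz2*, which was separated in the same way, at 148 FPKM or more against 111 or less. The levels of *Ptprc*, *Cd3e* and *Cd79a* in colon, heart and ovary overlapped with those in the other tissues. The sum was highest in female heart 3 among the heart libraries, at 594 against 183 to 257 FPKM, and in male colon 1 among the colon libraries. Female heart 3 also had the lowest summed blood markers (*Hbb-bs*, *Hba-a1*, *Alas2*) in heart, at 6291 against 7898 to 22145 FPKM. Its summed smooth muscle markers were the highest in heart, at 142 against 45.5 to 96.7 FPKM. The B-cell marker *Cd79a*, a part of the B-cell receptor, stood at 12.7 FPKM in female heart 3, against 0.649 to 1.53 FPKM in the other heart libraries, and at 23.1 FPKM in male colon 1, against 0.175 to 1.61 FPKM in the other colon libraries. In female heart 3, 16 of the 23 tested genes of the class had their highest heart FPKM (69.6%, against 53.5% of all genes tested), and 11 did with TMM-scaled library sizes (47.8%, against 29.5%). In male colon 1, 7 had their highest colon FPKM (30.4%, against 25.7% of all genes tested), and 4 did with TMM-scaled library sizes (17.4%, against 16.2%). With both libraries left out, the heart calls went from 12 (51.7% of all genes tested were called) to 9, losing *Art2a*, *Cdk3* and *Mx1*, the cerebellum calls went from 13 (52.8%) to 14, adding *Gbp11*, and the numbers of calls in the 4 other tissues stayed as they were. In whole tissue, fewer cells of a type and less RNA per cell cannot be told apart, and the part of leukocytes in these differences was not tested.

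Of the 5 interferon-inducible members, 4 were called higher in colon. *Mx1* was at 2.18, 6.03 and 2.80 FPKM in the female and 1.20, 1.70 and 1.21 FPKM in the male colon libraries, and no library of another tissue exceeded 0.869 FPKM. All 6 colon libraries thus lay above all others. *Mx1* was higher in colon by 2.85 (log2, SE 0.24, adjusted *P* = 7.56e-11) and in heart by 0.76 (adjusted *P* = 0.0267), a call that was lost without female heart 3 (0.57, adjusted *P* = 0.130) or male heart 2 (0.65, adjusted *P* = 0.152), and it fell by 2.10 in brain and 1.40 in cerebellum. *Mx2* was at 3.89, 10.4 and 3.79 FPKM in female colon, at 0.762, 1.04 and 1.04 FPKM in male colon and at 1.30 to 1.67 FPKM in ovary, so that male colon lay below ovary and female colon above it. It was higher in colon by 1.93 (SE 0.21, adjusted *P* = 8.7e-09) and in ovary by 0.74 (SE 0.27, adjusted *P* = 0.0316), a call that was lost without any 1 of the ovary libraries, and it fell by 1.36 in brain and 1.04 in cerebellum.

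*Oas1b* was highest in colon and ovary. Its libraries were at 3.37, 2.28 and 1.98 FPKM in ovary, at 2.52, 6.50 and 3.17 FPKM in female colon and at 0.983, 1.25 and 1.28 FPKM in male colon. Outside these tissues only female heart 3, at 1.53 FPKM, exceeded 0.581 FPKM. *Oas1b* was higher in colon by 2.41 (SE 0.25, adjusted *P* = 5.9e-09) and in ovary by 2.28 (SE 0.30, adjusted *P* = 6.65e-07), and it fell by 2.01 in testis, 2.26 in brain and 1.09 in cerebellum. Colon and ovary were not separated by the test (difference 0.11, adjusted *P* = 0.914). *Cxcl11*, a chemokine for activated T cells, had 104 counts in all, and 36 in colon and 34 in testis, where it was called higher (adjusted *P* = 0.000243 and 0.000129). *Gbp11*, a guanylate-binding protein, reached 0.959 FPKM in female heart 3 and at most 0.379 FPKM in any other library, and its 1 call was higher in brain (1.19, adjusted *P* = 0.0403). That call was lost in 8 of 29 fits with 1 library left out (highest adjusted *P* = 0.111). Across the 29 libraries, log2(FPKM + 0.1) of *Mx1* and *Mx2* had a Pearson *r* of 0.842, that of *Mx1* and *Oas1b* 0.753 and that of *Mx2* and *Oas1b* 0.875, a description over libraries that share tissue and depth.

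In colon, the sexes were compared within the same fit. *Mx2* was lower in males, where it fell by 2.84 on the log2 scale (SE 0.41, adjusted *P* = 0.000615), and it was the 1 of 23 genes called (0.324% of all genes tested were called, 0.234% as higher in females). Its 3 male libraries lay below its 3 female libraries in FPKM, a separation found for 4 of the 23 genes (17.4%, against 2.54% of all genes tested). *Cdk3* was 1 of these 4, at 0.137 FPKM or less in males and 0.151 FPKM or more in females. The libraries of *Mx1* and *Oas1b* were separated in the same way, but *Mx1* (-1.59, SE 0.46, adjusted *P* = 0.190) and *Oas1b* (-1.97, SE 0.48, adjusted *P* = 0.0880) missed the threshold. *Atp10d* pointed the other way, with 0.608, 0.604 and 0.796 FPKM in females and 1.88, 1.19 and 1.29 FPKM in males, and also missed it (0.95, SE 0.26, adjusted *P* = 0.154). DESeq2 called *Mx1*, *Oas1b* and *Atp10d* in addition to *Mx2*, and the share of all genes that it called was not kept. Female colon 2 was the highest library for *Mx1*, *Mx2* and *Oas1b*. Without it, *Mx2* fell by 2.13 (adjusted *P* = 0.00994), *Mx1* by 0.98 (adjusted *P* = 0.624) and *Oas1b* by 1.40 (adjusted *P* = 0.403).

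Other interferon-stimulated genes moved with these members in colon. Of a list of 35 such genes, *Oas1b* among them, the 34 others were all tested and all called higher in colon than in the other tissues, with a median of 2.60 on the log2 scale (all genes -0.38). Between the sexes in colon, 19 of the 34 were called lower in males and 0 higher, and all 34 fitted differences were negative, with a median of -1.68 (all genes 0). *Ifit1*, which binds foreign RNA, fell by 2.83 in males (SE 0.43, adjusted *P* = 0.000998), at 145, 566 and 186 FPKM in females and 55.4, 46.7 and 41.2 FPKM in males. *Irf7*, a transcription factor of the interferon response (-1.01, adjusted *P* = 0.131), *Ifitm3*, a membrane restriction factor (-0.15, adjusted *P* = 0.914), and *Ifi27* (-0.27, adjusted *P* = 0.925) missed the threshold. For 22 of the 34 genes (64.7%, against 2.54% of all genes tested) every male colon library was below every female one in FPKM, and female colon 2 was the highest colon library for 30 (88.2%, against 9.02%). The summed leukocyte markers went the other way, at 183 to 222 FPKM in female and 286 to 709 FPKM in male colon. Most of this sum was *Lyz2*, at 155 to 196 FPKM in female and 254 to 616 FPKM in male colon. The levels of *Ptprc*, *Cd3e* and *Cd79a* overlapped between the sexes. The labels name no animal or batch, so the part of single animals in this difference was not tested.

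**Figure D4:**
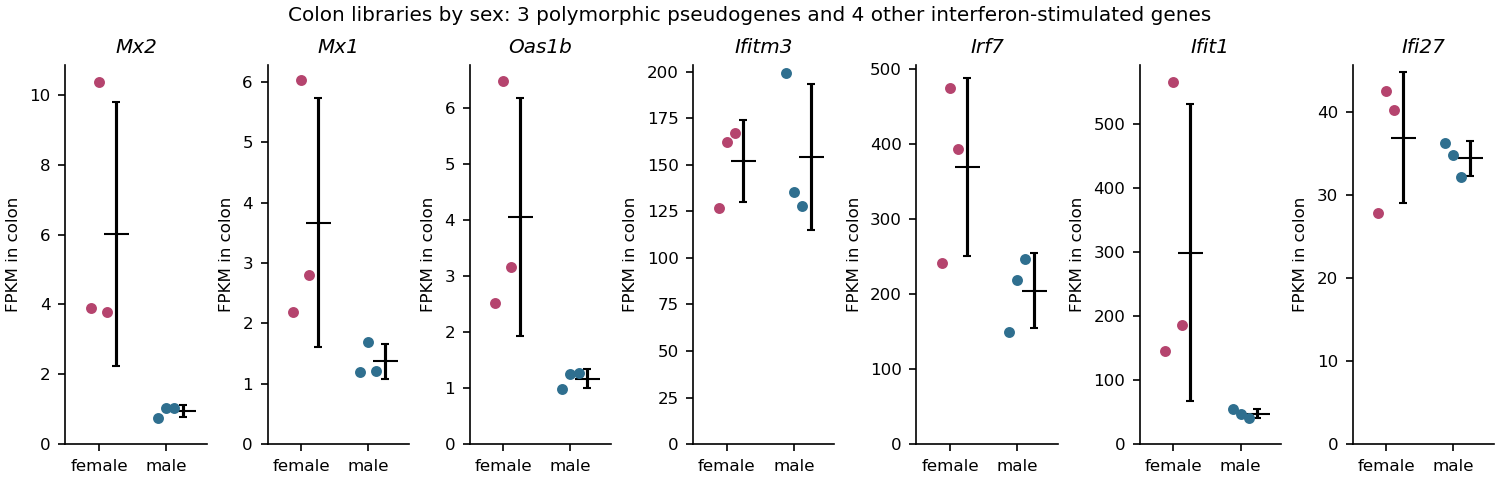
FPKM in colon (y axes, each from 0) of *Mx2*, *Mx1* and *Oas1b* and of 4 other interferon-stimulated genes, by sex (x axis). Points are the 3 libraries of each sex, and bars are the mean and SD. The 3 members and *Ifit1* are lower in every male library, with the highest value in female colon 2, while *Ifitm3* and *Ifi27* overlap between the sexes.

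In the 3 other tissues with both sexes, edgeR called 0 of 23 members. Of all genes tested, 0.0368% were called in brain, 0.0301% in cerebellum and 0.0635% in heart, and DESeq2 also called 0 members in each. At an unadjusted *P* under 0.05 there were 0 members in brain (4.83% of all genes tested), 2 in cerebellum (3.06%) and 3 in heart (9.65%). The interaction of sex and tissue, which tests whether the difference between the sexes varied among the 4 tissues, was called for 0 members (0.0167% of all genes tested), for 4 at an unadjusted *P* under 0.05 (6.77% of all genes tested) and for 1 by DESeq2. For *Mx2* its adjusted *P* was 0.168, so the sex difference in colon is not shown to differ from that in the other tissues.

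The remaining 6 members hold no common role. *Pcdhgb8*, a clustered protocadherin of neurons, ranged from 0.611 to 1.09 FPKM in cerebellum and from 0.127 to 0.403 FPKM in colon, and was called higher in cerebellum by 0.79 (adjusted *P* = 0.000648) and lower in colon. It shares 2744 exon bases with other protocadherin genes on its strand, so its counts are uncertain. *AC118710.1* had 108 of its 109 counts in colon, at 0.0836 to 0.589 FPKM. *Serpinb10*, a protease inhibitor of blood-forming cells, reached 0.465 FPKM in female heart 3 and was called lower in brain, a call lost in 6 of 29 fits with 1 library left out (highest adjusted *P* = 0.0765). *Gm15922* was called higher in heart and, except when female colon 3 was left out, in colon (log2 difference -0.059 without it), at 0.489 FPKM or less. That highest value was male colon 1, and no other colon library exceeded 0.200 FPKM. Its colon mean was 0.145 FPKM with male colon 1 and 0.0765 without it. *Sprr2g* and *Gm49385* had 1 and 0 counts.

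Almost all counts of the chemosensory receptors came from testis. The 60 receptor genes had 279 counts in all, 254 of them (91.0%) in testis, where 25 receptors were counted. Per library, the testis libraries held 97, 94 and 63 receptor counts, or 2.05 to 3.41 per 1e6 counts, and the ovary libraries 0, 12 and 4. The other 23 libraries held 9 in all, with 0 in the 5 heart libraries. The testis libraries did not overlap with any other library. No receptor reached 1 FPKM and 1 of 60 passed the filter, so these levels describe few reads.

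The highest receptors were *Olfr977-ps1*, at 0.671, 0.480 and 0.345 FPKM in testis (42 counts), *Olfr271-ps1*, at 0.443, 0.408 and 0.376 FPKM (35 counts), and *Olfr897-ps1*, at 0.413, 0.380 and 0.313 FPKM (31 counts). None of the 3 had a count outside testis, where 0 counts of *Olfr977-ps1* allow at most 0.271 FPKM in the shallowest library. *Olfr977-ps1* was the receptor tested. It passed the filter through testis alone, which fixed the direction of its difference, so its call by edgeR in testis is no further evidence of that direction, and DESeq2 did not call it (adjusted *P* = 0.244). Their frames are single exons, shown with the first stop in capitals because these are the receptors with the most reads.
Olfr977-ps1, codon 69 of 314, chr9:39974615-39974617, minus strand: cctggcagtgttTGAcatattctttcc
Olfr271-ps1, codon 121 of 317, chr4:52936019-52936021, minus strand: catgatggccttTGAccgctatgtggc
Olfr897-ps1, codon 109 of 311, chr9:38309121-38309123, plus strand: tctgcttttttgTGAacactgagagtt
Testis was the highest tissue for 23 of the 29 odorant receptor members with a count (79.3%). It was the highest for 59.3% of the 642 protein-coding odorant receptor genes with a count and for 55.8% of the 52 unprocessed pseudogenes of that family with one. These shares rest on few counts per gene and were not compared by a test. Both vomeronasal members with counts, *Vmn2r-ps5* (11) and *Vmn2r-ps119* (1), were also highest in testis.

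**Figure D5:**
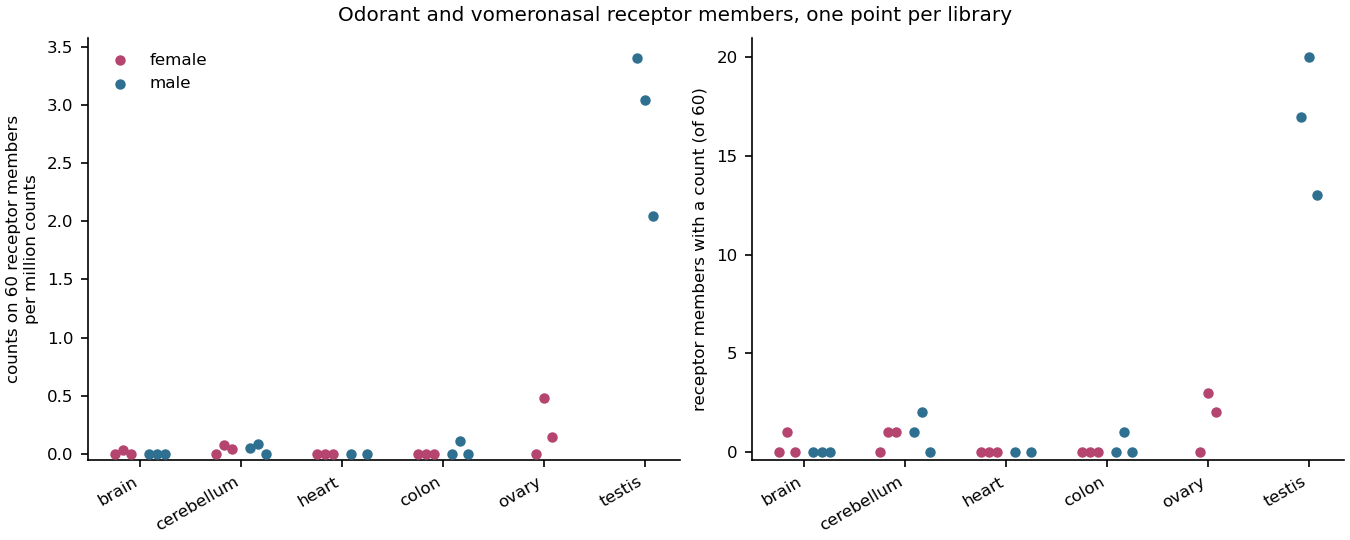
Counts on the 60 chemosensory receptor members per 1e6 counts (left) and the number of these genes with a count (right) in every library, by tissue (x axis) and sex (colour). The 3 testis libraries lie at 2.05 to 3.41 per 1e6 with 13 to 20 receptors each, and no other library exceeds 0.482 per 1e6 or 3 receptors.

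With the tissues of each of the 11 expressed genes put in the order of their mean FPKM, 21 of 55 pairs of neighbours differed at an adjusted *P* under 0.05 and 34 did not. The first and second tissues differed for *Rnls* (testis above heart by 3.06 on the log2 scale, adjusted *P* = 2.11e-09), *Hyi* (ovary above cerebellum by 0.90, adjusted *P* = 0.000816), *Mx1* (colon above heart by 1.74, adjusted *P* = 0.000197), *Mx2* (colon above ovary by 0.99 over both sexes, adjusted *P* = 0.0208, with male colon below ovary), *Ptprv* (ovary above testis by 2.25, adjusted *P* = 0.000503) and *Art2a* (colon above heart, adjusted *P* = 0.000487). They were not separated for *Clec7a*, *Abhd1*, *Atp10d*, *Oas1b* and *H2-Q5*. The median tau of the 11 genes was 0.807, against 0.734 for the 24678 genes that reached 1 FPKM.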

How the data were processed

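RNA-seq was counted in 29 libraries, and 6 Iso-seq samples entered only through the annotation. The authors deposited whole-number counts per gene, without normalization, of uniquely mapped reads. Their processing notes name FastQC 0.11.8, MultiQC 0.9, HISAT2 2.0.5, featureCounts 1.6.3 and mm10. The strand setting and the role of each tool for these libraries are not given in the sources used here. They also deposited the annotation, made from Iso-seq transcripts and ENSEMBL genes. All 29 count columns were used, and there were 0 further per-sample columns.

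Counts were tested with edgeR 4.0.16 (R 4.3.3) as described above, with TMM normalization and edgeR's filter by group, in one fit without a block. Alternatives were RLE size factors, DESeq2 1.42.0, no filter, a replicate block and leaving out each library. Same-numbered libraries did not deviate together (56 pairs, *r* from -0.259 to 0.0931). The class as a subject, the gene lists and the rule for names were chosen with earlier results of these data known, while the 88 members follow from the annotation alone. The rule named *Mx1*, *Mx2*, the 4 members that the study lists as detected by Iso-seq, up to 4 members per highest tissue, called members by sex and 4 interferon-stimulated genes. Other genes were named after their values were seen. Leaving out female heart 3 and male colon 1 together was also chosen after seeing the data. No 2 libraries of a group agreed within sampling noise. One gene of the leukocyte marker list and one sequence window are not reported here, and the marker sums leave that gene out.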

Additional observations from a re-analysis of the deposited data

Results flagged for a closer look

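The 11 expressed genes gave 31 sets of 5 or 6 libraries with a highest value of at least 0.5 FPKM in brain, cerebellum, heart or colon, both sexes together. Of these, 8 sets had a highest or lowest library far from the others by Dixon's criterion. Chance meets it in about 1 of 20 sets of independent, normally distributed values. That rate need not hold here, since the sets pool both sexes and share libraries. Of these 8, 5 were set apart by female heart 3. There *Clec7a* was at 9.85 FPKM (the next heart library at 4.14), *Hyi* at 3.09 (next 1.25), *Art2a* at 2.12 (next 0.159), *H2-Q5* at 2.09 (next 0.457) and *Oas1b* at 1.53 (next 0.581). Another 2 were set apart by female colon 2, where *Mx2* was at 10.4 FPKM (next 3.89) and *Mx1* at 6.03 (next 2.80). The last was *Hyi* in brain, at 1.73 FPKM in female brain 2 and 2.54 FPKM in the next library. These values are relative to total counts. With TMM-scaled library sizes 5 of the 8 sets still met the criterion, and *Hyi* (2.77, next 1.75), *Clec7a* (8.82, next 5.93) and *Oas1b* (1.37, next 0.817) in heart did not.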

How the results depend on the processing

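With no filter on low counts, 35 members differed among tissues and 29 were called in testis, 22 of them higher. The share of all genes called was kept for the main fit only, so the counts of members under the alternatives stand without it. The other tissue counts stayed within 1.5 times under RLE size factors, no filter, DESeq2, the replicate block and each library left out. Leaving out 1 library at a time gave 20 to 23 members differing among tissues, 8 to 11 called in brain, 12 to 14 in cerebellum, 9 to 14 in heart, 14 to 16 in colon, 8 to 11 in ovary and 8 to 11 in testis. DESeq2 called 4 members by sex in colon and 1 for the interaction. The colon count by sex was 1 to 2 with 1 library left out, the second being *Oas1b* without female heart 3 (adjusted *P* = 0.0452) or female colon 1 (adjusted *P* = 0.0400). The difference of *Gm15922* in colon ran from -0.059 to 2.61 with 1 library left out. The reversed value came without female colon 3, which leaves the female colon group at 0 counts, and its standard error was then 99.9. Its calls rest on 126 counts. *Mx2* in ovary was not called with RLE size factors (adjusted *P* = 0.0515) or without any 1 of the ovary libraries (highest adjusted *P* = 0.112). *Gbp11* in brain was not called with RLE size factors (0.0685), no filter (0.0511) or DESeq2 (0.0601), *Abhd1* in cerebellum not with RLE size factors (0.0625), and *Atp10d* in testis not without the filter (0.0935), each an adjusted *P*. RLE size factors and no filter moved the median of all genes in testis by 0.13 and -0.17 on the log2 scale. With the replicate block, 22 members differed among tissues, 11 were called in brain, 13 in cerebellum, 13 in heart, 14 in colon, 10 in ovary, 11 in testis and 1 by sex in colon. DESeq2 did not call *Pla2g2a* (adjusted *P* = 0.128) or *AC118710.1* (adjusted *P* = 0.0610) in colon. Between tissues, the block lost the call of *Pla2g2a* in colon, gained *Oas1b* in heart and *Gbp11* in testis, and changed no other call. The deposited map adds no polymorphic pseudogene under an Iso-seq locus, so that alternative could not be run. The causes of these changes were not tested. Counts of 0 cannot show that a receptor is silent at this depth.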
